A study of Mus musculus with 8 samples.

Results

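The glutathione peroxidases described here are the 6 genes Gpx1, Gpx2, Gpx3, Gpx4, Gpx7 and Gpx8, out of 20580 genes tested on the arrays. A probe was assigned to a member when it carried one of that gene's RefSeq accessions. The list of members was set with earlier results of these data known. It leaves out Gpx6, which also has a probe and is described at the end. Each member had 1 probe, and all 6 probes were well above background on all 8 arrays, so none was lost to the filter on dim probes. The arrays, single-colour Agilent ones, measured messenger RNA in left kidneys from 16-week-old male mice, 2 arrays in each of 4 groups. KD IRI kidneys came from Keap1 knockdown (KD) mice at day 1 after ischemia-reperfusion injury (IRI), made by clamping the left renal vein and artery for 45 min and releasing them. WT IRI kidneys came from wild-type (WT) mice after the same injury. KD normal and WT normal kidneys came from mice of each genotype that had no injury. The labels do not name the Keap1 allele or the strain, nor whether the 2 arrays of a group came from different animals; the p-values cover only the spread between these arrays, which may be technical.

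Glutathione peroxidases reduce hydrogen peroxide or lipid peroxides to water or alcohols. Gpx1, Gpx2, Gpx3 and Gpx4 do so with a selenocysteine in the active site and take their electrons from glutathione. Gpx7 and Gpx8 have a cysteine there, lie in the endoplasmic reticulum and work with protein disulfide isomerases. Gpx3 is secreted, and the proximal tubule of the kidney is the chief source of the enzyme in plasma. KEAP1 marks the transcription factor NRF2 for degradation, and Gpx2 is a known target of NRF2.

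The sequences just upstream of 3 members are shown because these genes followed the different patterns described below: Gpx2 differed between the genotypes, Gpx3 was lower and Gpx7 higher in injured kidneys. Each is the 250 bases before the transcript start, 5′ to 3′ on the gene's strand, from RefSeq on GRCm38.p6. Gpx2 lies at chr12:76795555-76795804 on the minus strand, Gpx3 at chr11:54902604-54902853 on the plus strand and Gpx7 at chr4:108406714-108406963 on the minus strand. Capitals mark the GC box, GGGCGG on either strand.
Gpx2: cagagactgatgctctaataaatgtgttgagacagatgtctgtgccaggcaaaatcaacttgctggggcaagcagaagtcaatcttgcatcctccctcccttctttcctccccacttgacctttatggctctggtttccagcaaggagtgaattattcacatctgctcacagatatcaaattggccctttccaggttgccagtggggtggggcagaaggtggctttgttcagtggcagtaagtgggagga
Gpx3: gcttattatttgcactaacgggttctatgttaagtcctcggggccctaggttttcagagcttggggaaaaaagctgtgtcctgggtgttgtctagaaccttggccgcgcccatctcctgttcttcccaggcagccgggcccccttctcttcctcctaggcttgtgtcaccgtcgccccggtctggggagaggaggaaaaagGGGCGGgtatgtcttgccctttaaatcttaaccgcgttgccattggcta
Gpx7: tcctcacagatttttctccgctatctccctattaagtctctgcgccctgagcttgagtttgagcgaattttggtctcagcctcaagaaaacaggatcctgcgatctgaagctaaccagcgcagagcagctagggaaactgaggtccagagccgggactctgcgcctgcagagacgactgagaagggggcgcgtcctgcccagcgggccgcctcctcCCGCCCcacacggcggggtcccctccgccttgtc

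All 6 members had an entry in the RefSeq table, Gpx4 with 4 start sites and the others with 1. Windows of 300 bases, from 250 before to 50 after the start, were searched on both strands for 4 motifs. The core of the antioxidant response element bound by NRF2, TGACNNNGC, is in 12.4% of the 32841 windows of all genes and in none of the members' windows. The same holds for the AP-1 site TGANTCA, which is in 7.81% of all windows, and for the TATA box TATAAA, which is in 13.6%. The GC box is in 35.7% of all windows, and among the members in those of Gpx1, Gpx3, Gpx7 and 3 of the 4 Gpx4 starts. These are matches of letters in these windows only.

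Levels are given as log2 of the processed spot intensity over the array's 75th percentile, and changes as log2 differences with limma's standard error (SE), n = 2 arrays per group. P-values are limma's, Benjamini-Hochberg adjusted over the 20580 genes, and a gene is said to have risen or fallen when its adjusted p was under 0.05. Keap1 itself was at 1.38 and 1.09 in KD IRI, against 2.70 and 2.55 in WT IRI. It was at 1.54 and 1.44 in KD normal, against 2.79 and 2.72 in WT normal. The arrays labelled KD were thus lower in both states, with adjusted p = 0.00493 with injury and 0.00372 without. The 13 proximal tubule markers tested were well above background on all 8 arrays. Between 62.1% and 67.8% of the spots were well above background, none was saturated, and the 2 arrays of a group correlated over genes with r between 0.989 and 0.994. The intensity at the 75th percentile was 1227 to 1292 on the injured arrays and 1014 to 1090 on the normal arrays. The scaling thus took more from the levels of injured kidneys. Each slide held 1 array of each group in the same order, so differences within slides are given beside the genotype results, while position on the slide and group cannot be told apart.

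Gpx2, the peroxidase known from the epithelium of the gut, was the member that differed most between the genotypes. In injured kidneys it stood at 0.36 and 0.83 in KD IRI, against -3.41 and -3.04 in WT IRI. In kidneys without injury it stood at -2.10 and -1.45 in KD normal, against -3.64 and -3.74 in WT normal. Every KD array was above every WT array, injured or not, and the 2 KD IRI arrays were the highest of the 8. As background-subtracted intensity the probe gave 1591 and 2175 in KD IRI, 121 and 157 in WT IRI, 236 and 377 in KD normal, and 86.8 and 81.8 in WT normal, where the lowest intensity called well above background was between 20.1 and 33.0 on any array.

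The comparison of KD IRI with WT IRI asks how the genotype groups differed in the injured kidney. Gpx2 was 14.1-fold higher in KD IRI (log2 3.82 ± 0.26 SE, adjusted p = 0.00229). Only 0.0486% of the 20580 genes changed by more in size. The differences within the slides were 3.77 and 3.86. This call held in all 18 other settings tried, such as another normalization or the loss of 1 array, with changes between 2.57 and 4.05. Many of these settings, such as the filters, the blocks or the loss of an array not compared, could not move the change itself. They could alter only its error and p-value.

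Gpx1 and Gpx3 were lower in KD IRI than in WT IRI. Gpx1, the main peroxidase of the cytosol, was at 6.70 and 6.61 in KD IRI, against 7.02 and 7.03 in WT IRI. It fell by 0.37 ± 0.067 (SE, adjusted p = 0.0265). Gpx3, the secreted form, was at 7.47 and 7.41 in KD IRI, against 7.86 and 7.86 in WT IRI, and fell by 0.42 ± 0.064 (SE, adjusted p = 0.0197). For both genes the KD IRI arrays lay below the WT IRI arrays, and the differences within slides were -0.32 and -0.42 for Gpx1 and -0.38 and -0.45 for Gpx3. Both were small changes beside that of Gpx2. Under normexp the differences were -0.17 for Gpx1 and -0.21 for Gpx3. The Gpx1 call was lost in 11 of the 18 other settings, among them the fits without KD IRI replicate 1 (adjusted p = 0.084) or 2 (0.177), WT IRI replicate 1 (0.0622) or 2 (0.0598), and WT normal replicate 1 or 2 (0.0662 each). The Gpx3 call was lost in 7, among them the fits without KD IRI replicate 1 (adjusted p = 0.0735) or 2 (0.142) and without WT normal replicate 1 (0.0526) or 2 (0.0519).

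Gpx4, Gpx7 and Gpx8 did not pass in that comparison. Gpx4, which reduces peroxides in membrane lipids and guards cells against ferroptosis, was at 5.92 and 5.64 in KD IRI, against 6.20 and 5.72 in WT IRI. The groups overlapped, and the interval of the difference was -0.58 to 0.23. Gpx7 was at -0.65 and -0.31 in KD IRI, against -0.82 and -0.73 in WT IRI, with an interval of -0.03 to 0.61 (adjusted p = 0.227). Gpx8 was at 2.07 and 2.21 in KD IRI, against 2.23 and 2.11 in WT IRI, with an interval of -0.31 to 0.25 (adjusted p = 0.888). In all, 1 of the 6 members rose and 2 fell, where 7.21% of all genes passed in this comparison, 3.63% higher and 3.57% lower.

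**Figure D1:**
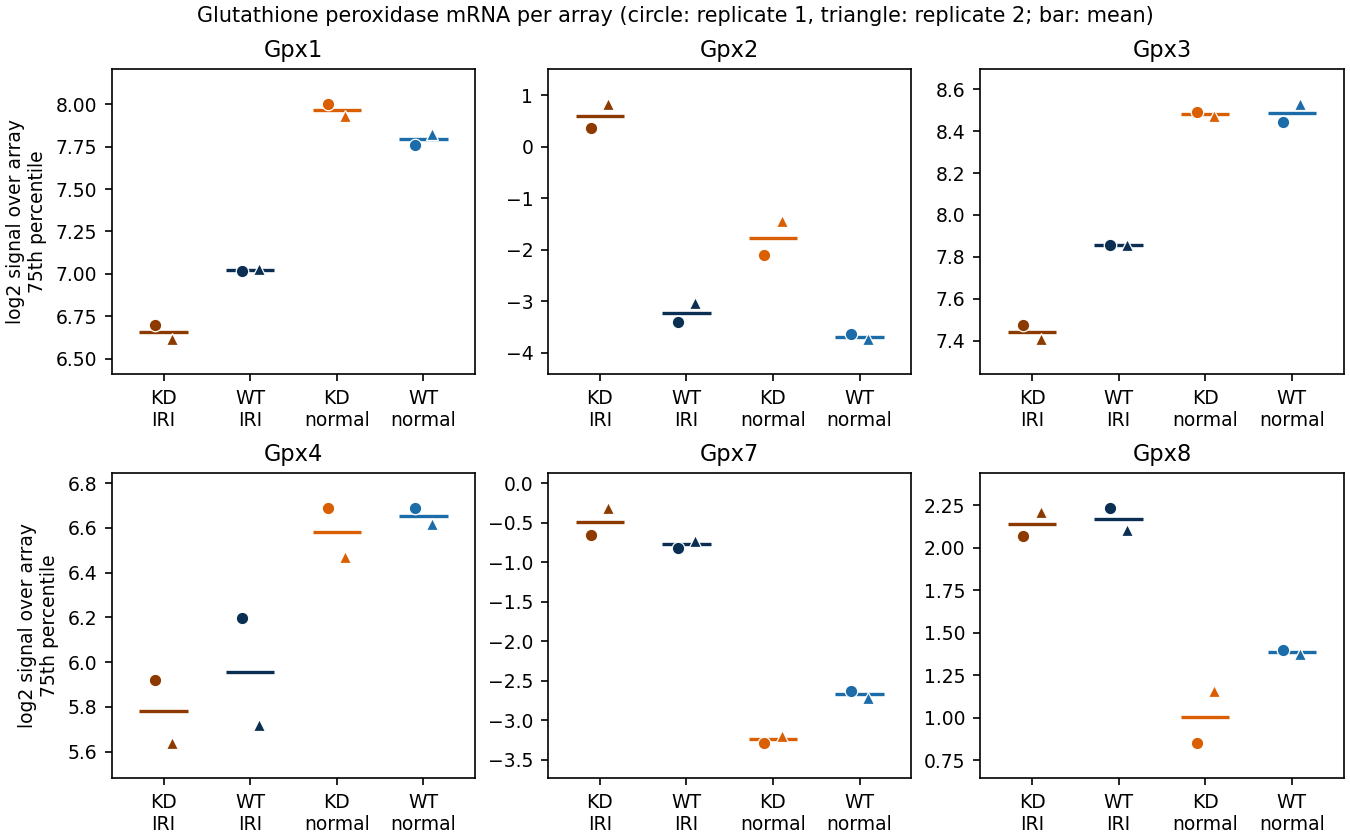
Level of each glutathione peroxidase on each array, as log2 of its signal relative to that array's 75th percentile (vertical axis, its own range in each panel), for KD IRI, WT IRI, KD normal and WT normal kidneys; circles are replicate 1, triangles replicate 2 and bars the group mean. The Gpx2 panel shows both KD groups above both WT groups, with KD IRI at 0.36 and 0.83, whereas the Gpx7 panel separates injured from normal kidneys.

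Setting KD normal against WT normal asks how the genotype groups differed without injury. Gpx2 was 3.76-fold higher in KD normal (log2 1.91 ± 0.26 SE, adjusted p = 0.00831), with differences of 1.53 and 2.29 within slides. The adjusted p was 0.0571 without WT normal replicate 1 and 0.0652 without WT normal replicate 2, with changes of 1.96 and 1.86. Gpx7 was at -3.29 and -3.20 in KD normal, against -2.63 and -2.71 in WT normal, and fell by 0.57 ± 0.14 (SE, adjusted p = 0.0354), but was 0.052 higher in KD normal under normexp background correction. Both KD normal arrays lay below both WT normal arrays for this gene. Its call was lost without any 1 of the 4 arrays compared, with adjusted p between 0.0874 and 0.179.

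The other 4 members did not pass without injury. Gpx8, like Gpx7 an enzyme of the endoplasmic reticulum, was at 0.85 and 1.16 in KD normal, against 1.40 and 1.37 in WT normal. The arrays did not overlap, but the difference of -0.38 had an adjusted p of 0.0707. It was -0.23 without KD normal replicate 1 (adjusted p = 0.208) and -0.53 without KD normal replicate 2 (adjusted p = 0.042). Gpx1 was at 8.0 and 7.93 in KD normal, against 7.76 and 7.83 in WT normal (0.17, adjusted p = 0.122, or 0.30 and 0.0287 under quantile normalization). Gpx3 was at 8.49 and 8.47 in KD normal, against 8.44 and 8.53 in WT normal, with an interval of -0.16 to 0.15, but was 0.34 higher in KD normal under quantile normalization (adjusted p = 0.0333). Gpx4 was at 6.69 and 6.47 in KD normal, against 6.69 and 6.62 in WT normal, with an interval of -0.48 to 0.33. Thus 1 of the 6 members rose and 1 fell, where 15.3% of all genes passed, 5.89% higher and 9.46% lower.

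The comparison of injured with normal kidneys within a genotype asks how each responds to ischemia. The WT IRI and KD IRI responses share no arrays with each other, but each shares its arrays with the genotype comparisons above. In both genotypes Gpx7 and Gpx8 were higher and Gpx1, Gpx3 and Gpx4 lower after injury, with 1 exception: Gpx3 in WT was 0.19 higher under quantile normalization (adjusted p = 0.0775). Gpx2 passed in KD and not in WT, and the test of that difference follows. In KD all 6 members passed, 3 higher and 3 lower, where 59.2% of all genes did, 27.8% higher and 31.3% lower. In WT 5 of 6 passed, 2 higher and 3 lower, where 46.1% did, 20.4% higher and 25.7% lower.

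Gpx7 rose after injury in both genotypes. It was at -0.65 and -0.31 in KD IRI, against -3.29 and -3.20 in KD normal, a 6.77-fold rise (log2 2.76 ± 0.14 SE, adjusted p = 2.07e-05). It was at -0.82 and -0.73 in WT IRI, against -2.63 and -2.71 in WT normal, a 3.72-fold rise (log2 1.90 ± 0.14 SE, adjusted p = 0.000154). All injured arrays lay above all normal arrays, and both calls held in all 18 other settings, with a change of 1.82 in KD under normexp. Gpx8 rose by 1.13 ± 0.12 in KD (SE, adjusted p = 0.00022) and by 0.78 ± 0.12 in WT (adjusted p = 0.00196), and these calls held in all 18 settings too. The 4 injured arrays of Gpx8 were between 2.07 and 2.23, and the 4 normal arrays between 0.85 and 1.40.

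The selenium-dependent Gpx1, Gpx3 and Gpx4 were lower after injury. Gpx1 was at 6.70 and 6.61 in KD IRI, against 8.0 and 7.93 in KD normal, and fell by 1.31 ± 0.067 (SE, adjusted p = 2.17e-05). It was at 7.02 and 7.03 in WT IRI, against 7.76 and 7.83 in WT normal, and fell by 0.77 ± 0.067 (SE, adjusted p = 0.000269). This WT change was -0.21 under quantile normalization (adjusted p = 0.0332) and did not pass under normexp (-0.90, adjusted p = 0.172). The KD IRI arrays were the lowest of the 8 for this gene and the KD normal arrays the highest. Gpx3 was at 7.47 and 7.41 in KD IRI, against 8.49 and 8.47 in KD normal, and fell by 1.04 ± 0.064 (SE, adjusted p = 3.46e-05), or by 0.57 under quantile normalization (adjusted p = 0.000741). It was at 7.86 and 7.86 in WT IRI, against 8.44 and 8.53 in WT normal, and fell by 0.63 ± 0.064 (SE, adjusted p = 0.000457), with the quantile exception given above. Under normexp the adjusted p of Gpx3 was 0.239 in KD and 0.301 in WT. Injured and normal arrays did not overlap in either genotype. The unscaled intensity of Gpx3 was also lower on the injured arrays, at 220123 and 208231 in KD IRI, against 364339 and 364776 in KD normal, and at 297890 and 299593 in WT IRI, against 376115 and 402252 in WT normal. Its rank among probes, from the brightest, was 20 and 21 in KD IRI, against 6 and 4 in KD normal. In WT IRI the rank was 8 and 7, against 11 and 15 in WT normal. By rank Gpx3 thus stood lower after injury in KD and higher after injury in WT.

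Gpx4 fell by 0.80 ± 0.17 in KD (SE, adjusted p = 0.00594) and by 0.69 ± 0.17 in WT (SE, adjusted p = 0.0151). Its levels were 5.92 and 5.64 in KD IRI, against 6.69 and 6.47 in KD normal, and 6.20 and 5.72 in WT IRI, against 6.69 and 6.62 in WT normal. These levels did not overlap, but the 2 WT IRI arrays lay far apart. By rank among probes, from the brightest, the WT groups overlapped, at 168 and 281 in WT IRI, against 165 and 181 in WT normal. In KD the rank was 239 and 301 in KD IRI, against 177 and 198 in KD normal. The WT call was lost without WT IRI replicate 2 (-0.45, adjusted p = 0.0562) and without WT normal replicate 1 (0.0777) or 2 (0.0577), and under quantile normalization the change was -0.35 in KD (adjusted p = 0.112) and -0.22 in WT (0.309). Under normexp the adjusted p was 0.151 in KD and 0.0801 in WT. Gpx2 was 5.17-fold higher in KD IRI than in KD normal (log2 2.37 ± 0.26 SE, adjusted p = 0.000272). In WT its change was 0.46, with an interval of -0.15 to 1.07 (adjusted p = 0.183).

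**Figure D2:**
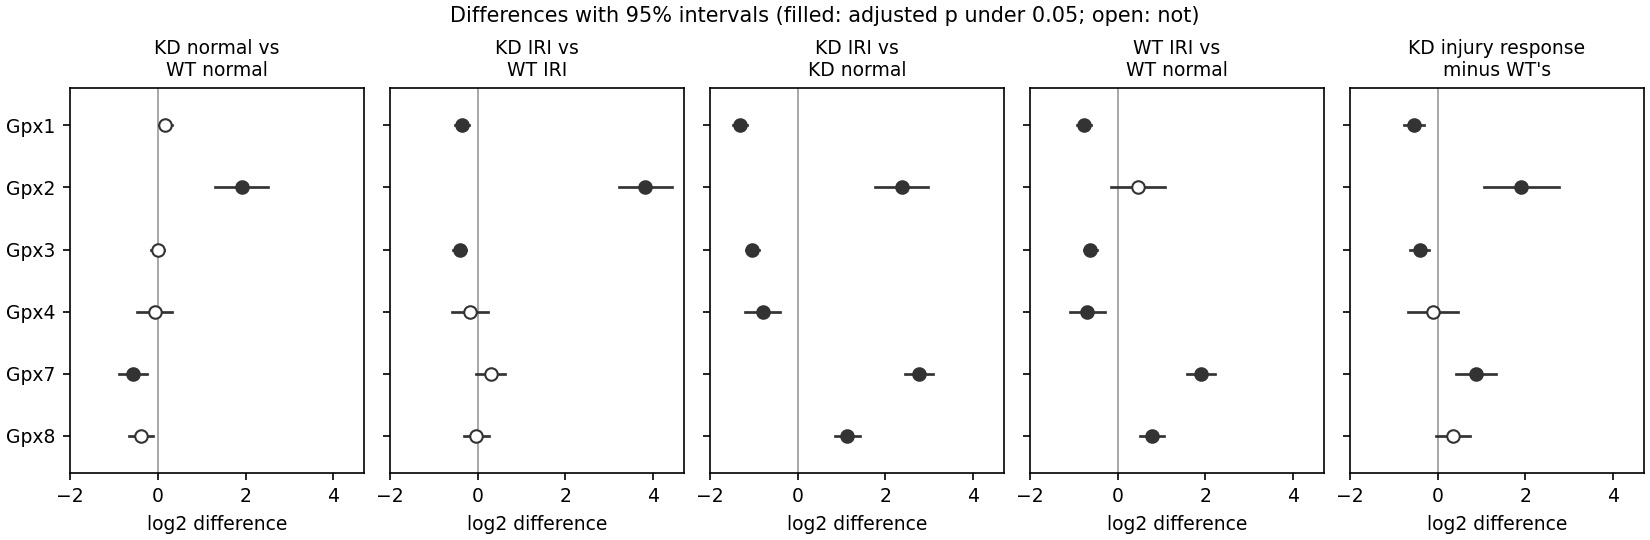
Log2 difference of each glutathione peroxidase (horizontal axis) in the 2 genotype comparisons, the 2 injury comparisons and the difference between the injury responses, from limma over 8 arrays; bars are 95% intervals and filled points passed an adjusted p of 0.05. Gpx2 stands at 3.82 in KD IRI against WT IRI; the Gpx3 points at -0.63 in WT and near 0 between normal kidneys are 0.19 and 0.34 under quantile normalization, and the Gpx7 point at -0.57 is 0.052 under normexp.

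The difference between the injury responses, KD minus WT, tests whether the genotypes responded unequally. It passed for 4 of the 6 members, 2 more positive and 2 more negative in KD, where 6.51% of all genes passed, 3.9% more positive and 2.61% more negative. The response of Gpx2 was 1.91 ± 0.36 more positive in KD (SE, adjusted p = 0.0343) and that of Gpx7 0.86 ± 0.19 more positive (SE, adjusted p = 0.0477). The responses of Gpx1 and Gpx3 were more negative in KD, with differences of -0.54 ± 0.094 (SE, adjusted p = 0.0284) and -0.41 ± 0.090 (SE, adjusted p = 0.0464). For Gpx4 and Gpx8 the differences were -0.11 (adjusted p = 0.82) and 0.35 (adjusted p = 0.235), with intervals of -0.68 to 0.47 and -0.04 to 0.74. All 4 calls were close to the threshold and were lost in 9 to 13 of 17 other settings. Under normexp the differences were 1.03 for Gpx2, 0.16 for Gpx7, -0.26 for Gpx1 and -0.017 for Gpx3, and under quantile normalization that of Gpx3 was -0.76. Without WT normal replicate 1 or 2, or without KD IRI replicate 1 or 2, none of the 6 members passed (4 had an unadjusted p under 0.05 in each of these limma fits).

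The order of the 4 groups therefore differed between members. For Gpx2 it ran from KD IRI through KD normal and WT IRI to WT normal, and WT IRI and WT normal did not differ past the threshold. For Gpx1 it ran from KD normal through WT normal and WT IRI to KD IRI, and the normal groups did not differ past the threshold. Gpx3 was lowest in KD IRI and next lowest in WT IRI, and the normal groups overlapped above both, apart from the quantile exceptions given above. For Gpx7 the order was KD IRI, WT IRI, WT normal and KD normal, with no call between the injured groups, and for Gpx8 the injured groups overlapped above both normal groups. KD normal was not compared with WT IRI.

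Across the 8 arrays, which share the 4 groups, Gpx1 and Gpx3 had a Pearson r of 0.988, Gpx7 and Gpx8 one of 0.977, and Gpx1 and Gpx7 one of -0.985. The highest r of Gpx2 with another member was 0.42, with Gpx7. Among 13735 other named genes, the levels most like those of Gpx2 were those of Txnrd1, which encodes thioredoxin reductase of the cytosol (r = 0.987), Ints13 (0.987) and Mfhas1 (0.977). For Gpx7 they were Efemp2, Elk3 and Ccn4, for Gpx8 Shisa4, Slc38a1 and Arhgef2, for Gpx1 Cdip1, Slc25a16 and Asah2, for Gpx3 Slc25a10, Plscr2 and Cdadc1, and for Gpx4 Pfn3, Gucy1b2 and Vwce. All of these r were between 0.977 and 0.999 and only describe these 8 arrays.

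Glutathione, the electron donor of the selenium-dependent members, is made by Gclc with Gclm and by Gss, and is recycled by Gsr with NADPH. Of 18 genes of glutathione supply and reduction, 7 rose in KD normal against WT normal and 11 did not pass (median 0.37, against -0.04 over all genes). There 5.89% of all genes rose and 9.46% fell. Gclc, the catalytic subunit of the first step of synthesis, rose by 2.00 (adjusted p = 0.00088), and Idh1, which makes NADPH in the cytosol, by 0.87 (adjusted p = 0.00995). In KD IRI against WT IRI 5 rose, 1 fell and 12 did not pass (median -0.03, against -0.04 over all genes), where 3.63% of all genes rose and 3.57% fell. Pgd, an NADPH source of the pentose phosphate pathway, rose by 1.13 (adjusted p = 0.00614), Gclc by 0.93 (adjusted p = 0.00928), and Oplah, which recycles 5-oxoproline, fell by 0.58 (adjusted p = 0.0225). After injury 4 rose and 10 fell in KD, where 27.8% and 31.3% of all genes did, and 5 rose and 7 fell in WT, where 20.4% and 25.7% did. Ggt1, which breaks down glutathione outside the cell, fell by 2.15 in KD (adjusted p = 0.000137) and by 1.59 in WT (adjusted p = 0.000969). Ggct, of the same breakdown route, fell by 2.29 in KD (adjusted p = 9.28e-05) and by 1.95 in WT (adjusted p = 0.000399). Slc7a11, the cystine importer, was not well above background in WT normal. It was at least 2.91-fold higher in WT IRI on the linear scale (fitted log2 change 3.62, adjusted p = 0.00326). In KD it rose by log2 4.81 (adjusted p = 0.000549).

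Gpx1 to Gpx4 need selenium, carried to the kidney by Selenop and taken up there by Lrp2. Of 14 genes of selenium supply and selenocysteine insertion, limma called none in KD normal against WT normal, and 2 had an unadjusted p under 0.05, both lower. Of all genes 15.3% passed there. In KD IRI against WT IRI only Selenop passed, falling by 0.49 (adjusted p = 0.024), while 13 did not pass and 3.57% of all genes fell. After injury 1 rose and 8 fell in each genotype, where 31.3% of all genes fell in KD and 25.7% in WT. Lrp2 fell by 2.35 in KD (adjusted p = 0.000225) and by 2.02 in WT (adjusted p = 0.000875), and Sephs2, which makes the selenium donor, by 1.65 in KD (adjusted p = 9.12e-05) and 1.5 in WT (adjusted p = 0.000318). Lrp8, another receptor of Selenop, was the gene that rose, by log2 2.78 in KD (adjusted p = 0.00127). In WT it was not well above background in normal kidneys. Its rise there was at least 2.74-fold on the linear scale (fitted log2 change 2.25, adjusted p = 0.0052).

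Of 17 other selenoprotein genes measured, 3 rose and 3 fell in KD normal against WT normal, and 2 rose and 3 fell in KD IRI against WT IRI. Over all genes 5.89% rose and 9.46% fell in the former comparison, and 3.63% and 3.57% in the latter. Txnrd1 rose in both, by 1.01 without injury (adjusted p = 0.00321) and by 1.44 with injury (adjusted p = 0.00117). Msrb1, a methionine sulfoxide reductase, rose by 0.75 in KD normal (adjusted p = 0.0206) and fell by 0.71 in KD IRI (adjusted p = 0.0374). Dio1, a thyroid hormone deiodinase, was lower in KD IRI than in WT IRI and fell by 1.08 (adjusted p = 0.0187). After injury 5 rose and 8 fell in KD, where 27.8% and 31.3% of all genes did, and 3 rose and 8 fell in WT, where 20.4% and 25.7% did. Selenon, of the endoplasmic reticulum, rose by 2.43 in KD (adjusted p = 5.17e-05) and 1.67 in WT (adjusted p = 0.000468), and Dio1 fell by 1.93 in KD (adjusted p = 9.19e-05) and 1.39 in WT (adjusted p = 0.000723).

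Of 13 other genes that remove peroxide or superoxide, 5 rose in KD normal against WT normal and 4 in KD IRI against WT IRI, and the others did not pass. In these comparisons 5.89% and 3.63% of all genes rose. Srxn1, which restores overoxidised peroxiredoxins, rose by 1.83 without injury (adjusted p = 0.00393) and by 1.14 with injury (adjusted p = 0.0187). Catalase, encoded by Cat, rose by 0.70 in KD normal (adjusted p = 0.0148), and Prdx6, which like Gpx4 reduces phospholipid peroxides, by 0.58 in KD IRI (adjusted p = 0.00997). After injury 4 rose and 7 fell in KD, where 27.8% and 31.3% of all genes did, and 3 rose and 9 fell in WT, where 20.4% and 25.7% did. Sod3, the extracellular superoxide dismutase, fell by 1.87 in KD (adjusted p = 0.000727) and 1.36 in WT (adjusted p = 0.00485), and Srxn1 rose by 1.02 in KD (adjusted p = 0.00187) and 1.72 in WT (adjusted p = 0.000413).

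Of 15 genes of lipid peroxidation around Gpx4, 2 rose and 1 fell in KD normal against WT normal, and 1 rose in KD IRI against WT IRI. Over all genes 5.89% rose and 9.46% fell in the former comparison, and 3.63% rose in the latter. Hmox1, which breaks down heme and frees its iron, rose by 4.19 without injury (adjusted p = 0.000733) and by 0.92 with injury (adjusted p = 0.0249), and Alox12, a lipoxygenase, fell by 1.02 without injury (adjusted p = 0.00687). After injury 5 rose and 7 fell in KD, and 4 rose and 5 fell in WT, shares near those over all genes (27.8% and 31.3% in KD, 20.4% and 25.7% in WT). Gch1, the first enzyme of tetrahydrobiopterin synthesis, rose by 2.33 in KD (adjusted p = 0.0011) and 2.79 in WT (adjusted p = 0.000937). Por, which passes electrons to cytochromes P450, fell by 1.01 in KD (adjusted p = 7.01e-05) and 0.81 in WT (adjusted p = 0.000388).

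Of 11 redox partners of Gpx7 and Gpx8 in the endoplasmic reticulum, 3 rose in KD normal against WT normal, and 1 rose in KD IRI against WT IRI. The shares of all genes that rose were 5.89% and 3.63%. Creld2, a stress-induced protein of this compartment, rose by 1.47 (adjusted p = 0.00382) and the chaperone Hspa5 by 0.88 (adjusted p = 0.02) in KD normal. After injury 2 rose and 5 fell in KD, where 27.8% and 31.3% of all genes did, and 1 rose and 2 fell in WT, where 20.4% and 25.7% did. P4hb, the main protein disulfide isomerase, fell by 0.61 in KD (adjusted p = 0.000176) and 0.45 in WT (adjusted p = 0.0012). Txndc5 rose by 0.76 in KD (adjusted p = 0.00218), and Ero1a, the oxidase that feeds the isomerases, by 0.62 in WT (adjusted p = 0.00557).

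**Figure D3:**
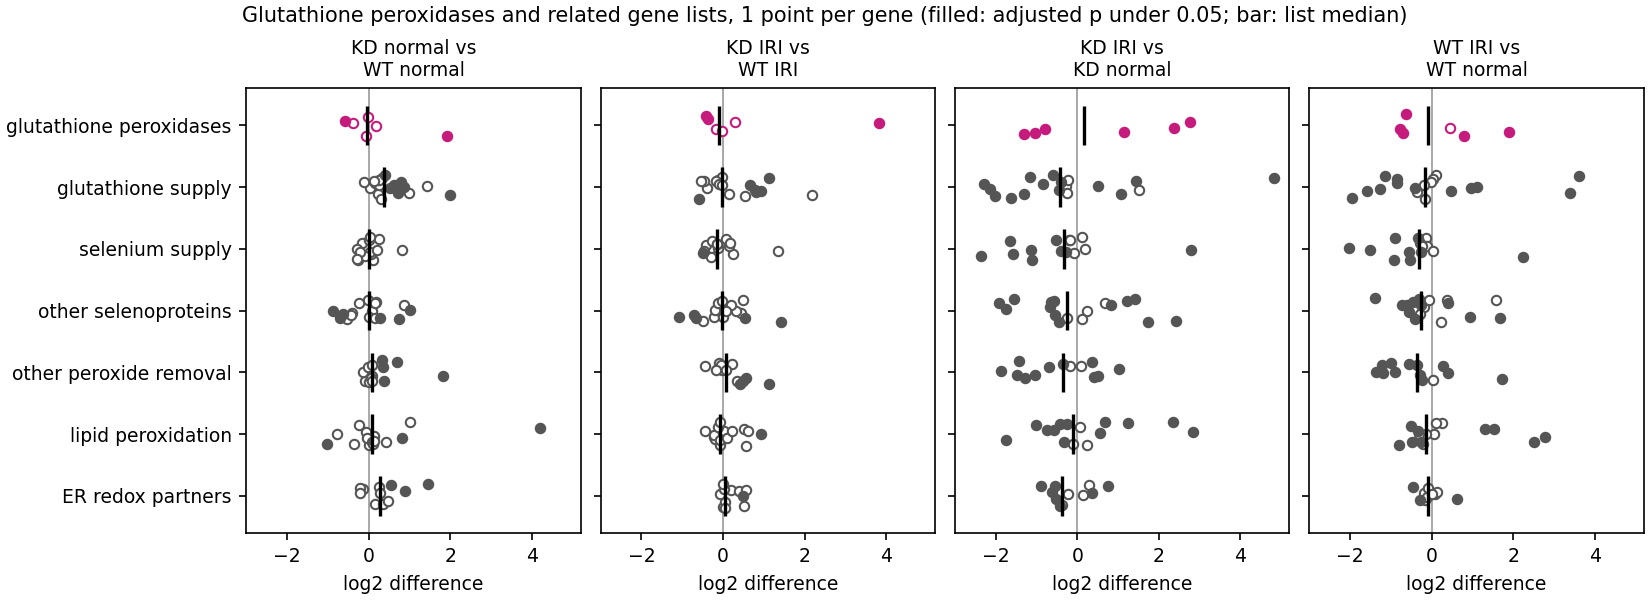
Log2 differences of the glutathione peroxidases and of 6 lists of related genes (rows) in the 2 genotype and the 2 injury comparisons (panels), 1 point per gene; filled points passed an adjusted p of 0.05, bars are list medians, and genes below background in a group are drawn at their fitted value. Gpx2 is the lone member far to the right in KD IRI against WT IRI, at 3.82, and the members split to both sides of 0 in the injury panels (Gpx3 in WT at -0.63, or 0.19 under quantile normalization).

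Markers of cell types moved with the injury and, for some lists, with the genotype, and their part in the members' changes was not tested. In whole kidney, fewer cells of a type and less RNA per cell cannot be told apart. After injury 27.8% of all genes rose and 31.3% fell in KD, and 20.4% and 25.7% did in WT. Proximal tubule markers fell in 13 of 13 in KD and 12 of 13 in WT after injury, with a summed signal of 382 to 479 in KD IRI and 459 to 645 in WT IRI, against 1505 to 1595 in KD normal and 1417 to 1460 in WT normal. In KD IRI against WT IRI, where Gpx1 and Gpx3 fell, 4 of the 13 fell and 9 did not pass, while 3.57% of all genes fell. The summed signals of the injured groups overlapped. Of 10 markers of fibroblasts and stroma 8 rose after injury in each genotype, as Gpx7 and Gpx8 did, and the sum was 140 to 170 in KD IRI and 106.9 to 123 in WT IRI, against 28.01 to 34.3 in KD normal and 27.9 to 28.2 in WT normal. In KD IRI against WT IRI 3 of the 10 rose, where 3.63% of all genes did. In KD normal against WT normal Acta2 rose by 0.68 (adjusted p = 0.0304) and Col1a1 fell by 0.78 (adjusted p = 0.0189). The other 8 did not pass there, and 5.89% of all genes rose and 9.46% fell.

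Of 9 neutrophil markers 8 rose after injury in each genotype, and of 10 macrophage markers 9 rose and 1 fell. Among the neutrophil markers only S100a9 and Ltf were well above background on all 8 arrays, while Csf3r and Mmp9 were so on 4. The macrophage marker Itgam was so on 5. Markers dim in normal kidneys passed the filter through the injured groups, so their rise was largely set by it. The neutrophil sums of normal kidneys include signal below background. Over all genes 27.8% rose and 31.3% fell after injury in KD, and 20.4% and 25.7% in WT. Neutrophil sums were 55.3 to 62.1 in KD IRI and 51.3 to 111.7 in WT IRI, against 0.817 to 6.47 in KD normal and 0.331 to 0.336 in WT normal, so the 2 KD normal arrays differed from each other in these markers. None of the 9 passed in KD normal against WT normal by limma (3 had an unadjusted p under 0.05, all higher). Of the macrophage markers Chil3 rose there, by 2.58 (adjusted p = 0.0274), and 9 did not pass, where 5.89% of all genes rose. Urothelial markers, of an epithelium that a whole kidney sample can hold, passed in 1 of 8 in KD normal against WT normal. This was the keratin Krt5, which rose by 1.74 (adjusted p = 0.0302), where 5.89% of all genes rose and 9.46% fell. None of the 8 passed in KD IRI against WT IRI by limma (3 had an unadjusted p under 0.05, 1 higher and 2 lower). There 3.63% of all genes rose and 3.57% fell. Krt5 was the higher one, at 1.44 (adjusted p = 0.0705). After injury 1 of the 8 rose in each genotype, Krt5, by 1.37 in KD and 1.67 in WT, while 6 fell in KD and 5 in WT. The sums of the urothelial markers were 25.8 to 29.9 in KD IRI, 29.5 to 34.3 in WT IRI, 28.2 to 37.8 in KD normal and 32.1 to 32.2 in WT normal. The ranges of the normal groups overlapped. Of 10 markers of the loop, distal tubule and collecting duct 9 fell after injury in each genotype, 5 fell in KD normal against WT normal, and 2 fell in KD IRI against WT IRI, Egf by 1.03 (adjusted p = 0.0267) and Scnn1b by 0.49 (adjusted p = 0.036). Pvalb, among those that fell after injury, was not well above background in either injured group. Of 8 endothelial markers 4 rose and 2 fell after injury in KD, 2 rose and 1 fell in WT, and 1 fell in KD IRI against WT IRI, and of 4 red blood cell markers 3 fell after injury in KD, 4 in WT and 1 in KD normal against WT normal. The last was Slc4a1 (-1.46, adjusted p = 0.0337). It is also on the list of the loop, distal tubule and collecting duct, so it is counted in both lists.

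**Figure D4:**
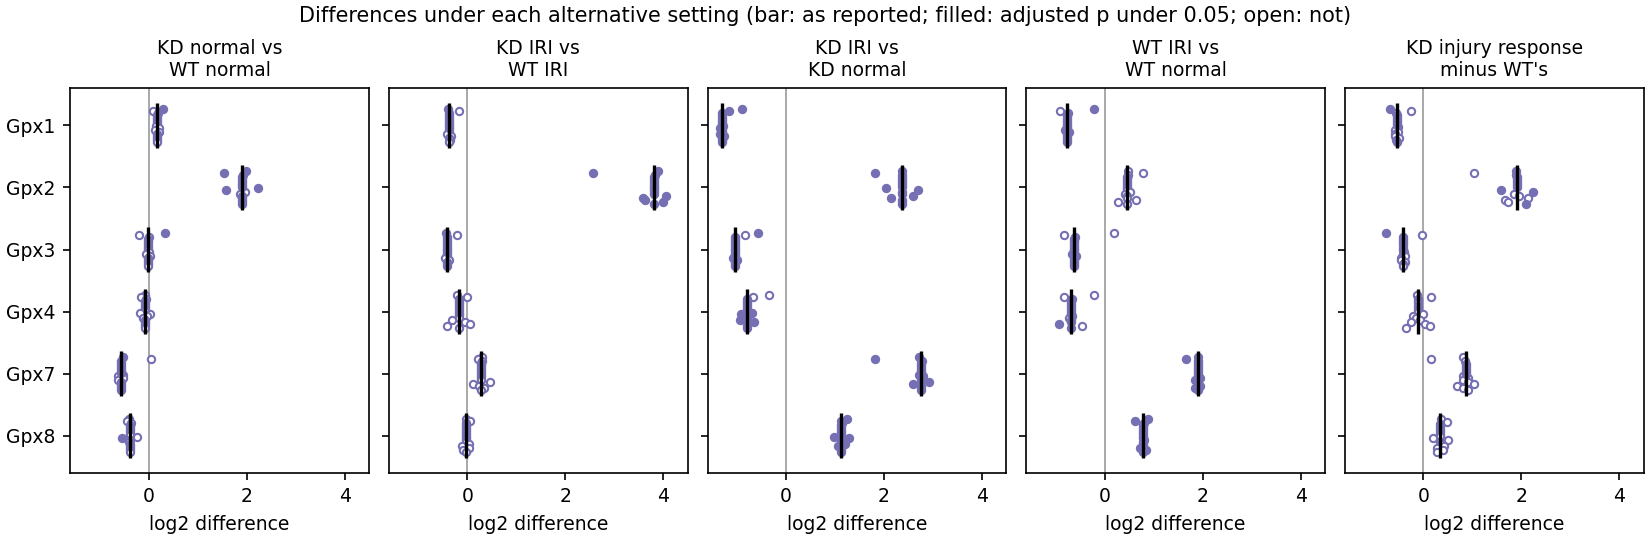
Log2 difference of each glutathione peroxidase (horizontal axis) under every other setting tried, in the 5 comparisons (panels); the bar is the reported value, and filled points passed an adjusted p of 0.05. The Gpx2 points in KD IRI against WT IRI are all filled, between 2.57 and 4.05, whereas most points for the difference between injury responses are open, and Gpx3 in WT injury and in normal kidneys (0.19 and 0.34 under quantile normalization) and Gpx7 in normal kidneys (0.052 under normexp) cross 0.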

How the data were processed

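Per the file headers, the deposited scanner files hold spot intensity on a linear scale, background-subtracted by Agilent Feature Extraction 10.7.3.1 on an array design annotated to mm9. Per the labels' protocols, each array received Cy3-labelled material from 300 ng of total RNA. The deposited series table holds log2 values; the scale is not stated, and its columns tracked the log2 intensity centred on each probe's median (r between 0.999919 and 0.99996), with column medians of -0.133 and -0.116 in KD IRI, -0.0730 and -0.0792 in WT IRI, 0.0937 and 0.0550 in KD normal, and 0.156 and 0.121 in WT normal.

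Control and outlier spots were left out, spots of a probe were averaged as log2 intensity, and each array's 75th percentile was subtracted. A probe stayed in if 1 or more groups had it well above background on both of their arrays (27408 of 41174 probes), and the brightest per gene was used, which gave 20580 genes, 14106 with a RefSeq symbol and the rest under their array identifier. Group means were fitted over all 8 arrays with limma 3.58.1 in R 4.3.3 (with data.table, version 1.17.8), with an intensity trend and 4 residual degrees of freedom, and 5 contrasts were tested two-sided with Benjamini-Hochberg adjustment. The script was tested on simulated data. The number of arrays limits the precision.

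Slide 1 held replicate 1 of each group and slide 2 replicate 2, per the file headers, so the numbers pair the arrays by slide. Deviations of same-numbered arrays correlated between groups with r from 0.0216 to 0.262.

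The members and the gene and marker lists were chosen with earlier results of these data known. The genes named are the members, Keap1, the 3 named genes most like each member, and up to 2 largest rises and 2 largest falls per list and comparison among those past the threshold; not all are printed. Markers named with the cell type lists lie outside this rule.

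Other settings were quantile normalization, normexp (on the median spot signal, as the files used here lack the mean), the deposited table, other filters on dim probes, no intensity trend, the mean of probes, only the arrays compared, a slide block and a replicate block (the same fit here), and leaving out each array.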

Additional observations from a re-analysis of the deposited data

Results flagged for a closer look

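For 4 members the injury response differed between the genotypes by the test of the difference itself. The response of Gpx2 was 1.91 more positive in KD than in WT (log2 1.9074, adjusted p = 0.0343 by limma, n = 2 arrays per group), with values of 2.24 and 1.58 within the slides. That of Gpx7 was 0.862 more positive (adjusted p = 0.0477), with 0.82 and 0.90 within slides. Those of Gpx1 and Gpx3 were more negative, by -0.541 (adjusted p = 0.0284) and -0.410 (adjusted p = 0.0464), with -0.56 and -0.52 and with -0.43 and -0.39 within slides. The direction was the same on both slides for all 4, and the calls were lost in 11 (Gpx1), 9 (Gpx2), 12 (Gpx3) and 13 (Gpx7) of 17 other settings. Under normexp the values were -0.26 for Gpx1, 1.03 for Gpx2, -0.017 for Gpx3 and 0.16 for Gpx7, and under quantile normalization -0.76 for Gpx3.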

How the results depend on the processing

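Of 534 recomputed member values, 436 kept their direction and their side of the threshold and 15 changed sign. Settings that left the compared levels as they were could alter only the error and p-value. The slide and replicate blocks, the same fit, are both counted. In all, 83 lost and 3 gained a call; causes were not tested, and the 2 arrays per group limit every call. Gpx2 in KD IRI against WT IRI, Gpx7 and Gpx8 in both injury responses, and Gpx1 and Gpx2 in the KD injury response passed in all 18 other settings. The replicate block, which is also the slide block, left the members called at 2, 3, 5, 6 and 4 in the genotype comparison without injury, that with injury, WT injury, KD injury and the difference between injury responses, and the genes called at 3723, 1764, 10143, 12835 and 1621; it changed no member's call.

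Members passing, in KD normal against WT normal, were 4 under quantile normalization and 1 under normexp, without the filter on dim probes and with only the arrays compared. In KD IRI against WT IRI they were 1 under normexp, without the filter and with only the arrays compared. In WT injury they were 3 under quantile normalization and 2 under normexp. For the difference between injury responses they were 0 by limma under normexp (2 at an unadjusted p under 0.05), and 0 with the deposited table, without the filter and without the intensity trend (4 each at an unadjusted p under 0.05). Leaving out each array in turn gave 0 to 2, 1 to 3, 4 to 5, 6 to 6 and 0 to 1 members in the order above (2 and 4 at an unadjusted p under 0.05 where it gave 0), and 124 to 3883, 24 to 1575, 5965 to 9759, 9261 to 12546 and 5 to 1720 genes. Genes passing in KD normal against WT normal were 1338 under normexp and 2015 without the filter. In KD IRI against WT IRI they were 960 with the deposited table, 972 without the trend and 67 with only the arrays compared. In WT injury they were 5253 under normexp and 15202 without the filter, in KD injury 6953 under normexp, and for the difference between responses 757 with the deposited table, 580 without the filter and 766 without the trend. Normexp moved the median of all genes to 0.13 in KD normal against WT normal, -0.21 in KD IRI against WT IRI, 0.20 in WT injury and -0.32 in KD injury.

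Sign changes were Gpx3 in KD normal against WT normal (0.34 under quantile normalization, 0.0078 with the deposited table, -0.047 to 0.036 without 1 array) and in WT injury (0.19 under quantile normalization), Gpx7 in KD normal against WT normal (0.052 under normexp), and Gpx8 in KD IRI against WT IRI (0.062 under normexp, -0.10 to 0.038 without 1 array). Gpx4 ranged from -0.18 to 0.037 in KD normal against WT normal and from -0.42 to 0.060 in KD IRI against WT IRI without 1 array. Its difference between injury responses was 0.16 under normexp and -0.35 to 0.13 without 1 array, and that of Keap1 0.090 under normexp and -0.27 to 0.019 without 1 array.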

Other observations

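Gpx6, a further gene of the family with a probe on the array that is not among the members above, fell with injury in both genotypes. Its log2 level was -0.38 and -0.77 in KD IRI, against 2.28 and 2.40 in KD normal, and it fell by 2.91 ± 0.13 (SE, adjusted p = 1.78e-05 by limma, n = 2 arrays per group). In WT it was at -0.72 and -0.64 in WT IRI, against 2.71 and 2.82 in WT normal, and fell by 3.44 ± 0.13 (SE, adjusted p = 2.74e-05). Between the genotypes it did not pass, with differences of 0.10 between the injured groups (adjusted p = 0.667) and -0.42 between the normal groups (adjusted p = 0.0767). RefSeq lists Gpx2 and Gpx4 pseudogenes (Gpx2-ps1, Gpx4-ps1 and Gpx4-ps2), and whether the probes also bind their transcripts was not tested.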
